A study of Schizosaccharomyces pombe with 14 samples.

Results

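RNA polymerase III is represented here by 7 fission yeast genes for its subunits: rpc1 (SPBC651.08c), rpc2 (SPAC4G9.08c), rpc11 (SPAC22A12.05), rpc37 (SPCC330.13), rpc53 (SPCC18.07), rpc25 (SPBC2G5.07c) and rpc19 (SPAC1687.01). They were chosen by name, and the choice was made with earlier results of these data known; all 7 were found among the 6988 genes of the count table. All 7 were among the 6521 genes tested, and the smallest count of any of them in any library was 217. Poly(A)-selected RNA of Schizosaccharomyces pombe was sequenced in 14 groups of 3 libraries each. The wild type was an h- strain (AGP72) and the mutant an h+ strain in which the natMX marker replaces maf1 (AGP256), so mating type goes with genotype. Each strain was sampled at 0 h, in log phase at 30 ºC in the rich medium YES, and after 4, 8, 12, 24, 36 and 48 h in ePMGT medium without phosphate. The labels call 4 to 12 h limited growth and 24 to 48 h quiescence. Change of medium and loss of phosphate cannot be told apart in any comparison with 0 h.

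RNA polymerase III makes tRNAs, 5S ribosomal RNA and other short noncoding RNAs. Maf1 binds the polymerase and represses it when nutrients run out or cells are stressed, and the series asks what Maf1 contributes during long phosphate starvation. Rpc1 and Rpc2 are the largest subunits and together form the active centre. Rpc11 carries the RNA cleavage activity and takes part in termination and reinitiation, Rpc37 and Rpc53 form a heterodimer that acts in initiation and termination, and Rpc25 belongs to the stalk. Rpc19 pairs with Rpc40 in the assembly platform that RNA polymerase I also uses. What was measured is the mRNA of these subunits, which is made by RNA polymerase II, and not the activity of RNA polymerase III or the amount of subunit protein.

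The total count per library was 12157201 to 26359389 in the wild type and 33249827 to 42808200 in the deletion, so depth also goes with genotype. The maf1 transcript stood at 20.9 to 106 CPM (counts scaled to library size) in the 21 wild-type libraries and at 1.59 to 7.13 CPM in the 21 deletion libraries, as labelled. Levels are given as CPM after scaling, as mean ± SD over 3 libraries. Changes are log2 ratios ± SE from edgeR's quasi-likelihood test, with p-values adjusted by Benjamini-Hochberg over all 6521 genes. A gene is said to rise, fall or be called where the change reached 2-fold with an adjusted p below 0.05. Since it is not stated whether the 3 replicate experiments were separate cultures, p-values measure only the spread between these libraries. CPM are relative to all counted mRNA, so a change of one gene and an opposite change of the total per cell cannot be told apart.

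**Figure D1:**
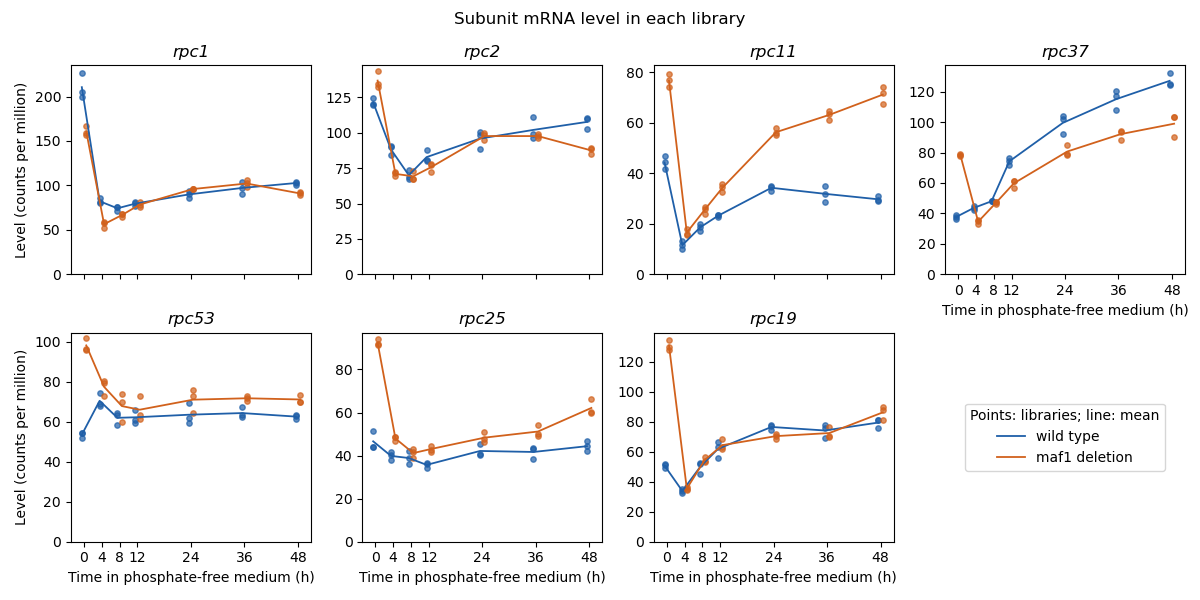
mRNA level of each subunit in CPM (y axis, from 0, with its own scale in each panel) against hours in phosphate-free medium (x axis); each point is 1 library and lines join the means of 3, with wild type in blue and the maf1 deletion in orange. For rpc19, rpc25, rpc53, rpc37, rpc11 and, by less, rpc2 the deletion lies above the wild type at 0 h. For rpc11 every deletion library stays above every wild-type library at each later time. For rpc25 and rpc53 the deletion's mean also stays above, with overlapping libraries at some times.

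Before starvation, at 0 h, the subunit mRNAs were not at one ratio between the strains. rpc19 and rpc37 were called higher in the maf1 deletion, rpc25, rpc53 and rpc11 stood 1.73-fold to 1.99-fold higher without reaching 2-fold, rpc2 differed little and rpc1 was on the lower side. For rpc19, the wild-type libraries held 51.2, 51.6 and 49.4 CPM and the deletion libraries 128, 130.0 and 134 CPM. Every deletion library thus lay far above every wild-type library, a log2 difference of 1.37 ± 0.05 (2.58-fold, adjusted p = 3e-23). For rpc37, the wild-type libraries held 37.5, 39.0 and 36.3 CPM and the deletion libraries 78.3, 79.3 and 77.6 CPM. These groups did not overlap either, and the log2 difference was 1.06 ± 0.05 (2.09-fold, adjusted p = 2.3e-20). Its partner rpc53 held 54.3, 52.1 and 54.3 CPM in the wild type and 96.6, 102 and 96.0 CPM in the deletion. Both genes of the heterodimer were therefore higher in all 3 deletion libraries, rpc53 by a log2 difference of 0.87 ± 0.07 (adjusted p = 8.6e-15).

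The stalk gene rpc25 stood at 44.2, 51.6 and 44.1 CPM in the wild type and at 91.3, 94.1 and 91.7 CPM in the deletion, a log2 difference of 0.99 ± 0.06 that lay just inside the 2-fold limit. It passed that limit when wild-type replicate 2, the highest wild-type library, was left out (1.08), and narrowly with no low-count filter (1.002). The cleavage subunit gene rpc11 was at 41.8, 46.7 and 44.4 CPM in the wild type and at 73.9, 76.8 and 79.2 CPM in the deletion, a log2 difference of 0.79 ± 0.06. The genes of the active centre showed another picture. rpc2 was at 119.7, 124 and 119.9 CPM in the wild type and at 144, 134 and 132 CPM in the deletion, groups that were close but did not overlap (log2 difference 0.17 ± 0.05, adjusted p = 0.000995). rpc1 was at 205, 226 and 199.8 CPM in the wild type and at 167, 157 and 159 CPM in the deletion, so it was the member on the lower side in the deletion (-0.39 ± 0.04, adjusted p = 5.97e-10).

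At 0 h, 2 of the 7 subunits were thus called, both higher, where 29.7% of all genes tested were called in either direction. The median log2 difference over the 7 was 0.87, beside 0.12 over all genes. This comparison moved with scaling: with library size alone in place of TMM factors, the median of all genes shifted by -0.28 and the share of called genes that were higher went from 46.5% to 26.8%. rpc37 was then at 0.78 and no longer called, rpc2 was at -0.11 and so changed sign, and rpc19 stayed called at 1.09. With the same setting rpc25, rpc53 and rpc11 were at 0.71, 0.59 and 0.51, and rpc1 was at -0.67. rpc37 was also under 2-fold when the scaling factors were computed without noncoding genes (0.998) and when the 2 groups were fitted alone (0.94).

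In the wild type, starvation changed the subunit mRNAs in different directions. rpc1 fell at all 6 times, rpc11 fell at 4 and 8 h, rpc37 rose at 24, 36 and 48 h, and rpc2, rpc19, rpc25 and rpc53 were not called at any time. All 6 comparisons share the same 0 h libraries. For rpc1, the 205, 226 and 199.8 CPM of 0 h stood against 81.1, 80.0 and 85.7 CPM at 4 h, 75.6, 71.5 and 75.7 CPM at 8 h and 101, 104 and 103 CPM at 48 h. Every starved library was below every 0 h library, and the log2 change was -1.35 ± 0.05 at 4 h (adjusted p = 7.1e-25), -1.50 ± 0.05 at 8 h (adjusted p = 3.17e-26) and -1.03 ± 0.05 at 48 h (adjusted p = 2.29e-21). The gene for the largest subunit was therefore lowest at 8 h and remained about 2-fold below 0 h at the end. Its partner in the active centre, rpc2, ran in the same order but less far, from 121 ± 2.65 CPM at 0 h to a lowest mean of 70.0 CPM at 8 h (log2 change -0.79) and 108 CPM at 48 h (-0.17).

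rpc11 had the largest early change of the 7. Its libraries went from 41.8, 46.7 and 44.4 CPM at 0 h to 9.85, 11.8 and 13.0 CPM at 4 h, a log2 change of -1.94 ± 0.08 (adjusted p = 2.19e-23), and to 17.1, 18.8 and 19.9 CPM at 8 h (-1.25 ± 0.07, adjusted p = 2.69e-18). At 12 h they held 23.4, 22.8 and 23.3 CPM. That log2 change was -0.93, inside the 2-fold limit, and passed it when 0 h replicate 1 was left out, at -1.17 with library size alone and at -1.02 with all libraries thinned to one depth. At 24, 36 and 48 h rpc11 stood at 34.3, 31.9 and 29.7 CPM on average, below every 0 h library but by less than 2-fold.

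rpc37 went the other way. It stood at 37.6 ± 1.38 CPM at 0 h, and the means at 4, 8, 12, 24, 36 and 48 h were 43.6, 48.0, 74.2, 99.4, 115 and 127 CPM, each above the one before. The 48 h libraries held 132, 125 and 124 CPM, all more than 3 times any 0 h library, with a log2 change of 1.76 ± 0.05 (3.38-fold, adjusted p = 4.14e-27). At 24 h the log2 change was 1.41 ± 0.05 and at 36 h 1.61 ± 0.05. At 12 h it was 0.98, and 1.01 without 12 h replicate 2. Its heterodimer partner rpc53 did not follow: its mean was 53.6 CPM at 0 h, 70.5 CPM at 4 h and between 62.0 and 64.4 CPM afterwards, with log2 changes of 0.21 to 0.40 that turned to -0.03, -0.06 and -0.05 at 12, 36 and 48 h with library size alone.

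rpc19, shared with RNA polymerase I, was at 51.2, 51.6 and 49.4 CPM at 0 h, at 34.9, 34.0 and 32.5 CPM at 4 h and at 81.0, 76.1 and 81.2 CPM at 48 h. It was thus lower than 0 h in every library at 4 h (log2 change -0.58), overlapped 0 h at 8 h (-0.02) and was higher in every library at 48 h (0.65), always by less than 2-fold. rpc25 had log2 changes of -0.38 to -0.07, or -0.62 to -0.34 with library size alone, and libraries that overlapped those of 0 h at 24 and 48 h.

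By time, 2 of the 7 subunits were called at 4 h, where 34.9% of all genes were called, 2 at 8 h (40.7%), 1 at 12 h (41.7%), 2 at 24 h (40.9%), 2 at 36 h (42.5%) and 2 at 48 h (41.8%). Over the 6 times this made 11 calls of 42, of which 8 were lower and 3 higher. The 6 times share the 0 h libraries. At each time the share of the 7 called was below that of all genes, and with 7 genes 1 call moves that share widely. The log2 changes of the 7 spread over 2.34 units at 4 h and 2.79 units at 48 h. With library size alone the median of all genes shifted by -0.14 at 4 h and by -0.32 at 36 h, and the share of called genes that were higher at 36 h went from 51.7% to 37.3%.

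In the maf1 deletion, measured against its own 0 h, all calls were lower and all lay between 4 and 12 h. rpc1, rpc11 and rpc19 fell at 4, 8 and 12 h, rpc37 fell at 4 h, and rpc25 fell at 8 and 12 h, while rpc2 and rpc53 were not called. For rpc11, the 73.9, 76.8 and 79.2 CPM of 0 h stood against 16.1, 15.6 and 17.9 CPM at 4 h. No library at 4 h came near a 0 h library, and the log2 change was -2.21 ± 0.07 (4.63-fold lower, adjusted p = 4.76e-27). rpc11 then stood at means of 25.5, 34.3, 56.2, 63.1 and 71.1 CPM at 8, 12, 24, 36 and 48 h. At 48 h its libraries (74.0, 67.4 and 71.9 CPM) overlapped those of 0 h.

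rpc19 went from 128, 130.0 and 134 CPM at 0 h to 34.4, 36.6 and 35.2 CPM at 4 h, a log2 change of -1.88 ± 0.05 (3.69-fold lower, adjusted p = 9.07e-28). It was at -1.26 at 8 h and at -1.02 at 12 h, the last being -0.94 with library size alone, -0.995 with thinned libraries, -0.995 with the 2 groups fitted alone and -0.995 without 12 h replicate 2, all inside the 2-fold limit. At 48 h it held 88.1, 81.0 and 89.6 CPM, lower than every 0 h library by a log2 change of -0.60. rpc37 went from 78.3, 79.3 and 77.6 CPM at 0 h to 33.0, 35.0 and 35.8 CPM at 4 h (-1.18 ± 0.05, adjusted p = 3.49e-22), overlapped 0 h at 24 h, and was at 103, 90.3 and 103 CPM at 48 h (0.34). The same gene that rose in the wild type was therefore called lower at 4 h in the deletion and not called at any later time.

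rpc1 went from 161 ± 5.14 CPM at 0 h to 59.3, 52.0 and 58.0 CPM at 4 h (-1.51 ± 0.05, adjusted p = 1.22e-26), and its log2 changes at 8 and 12 h were -1.27 and -1.03. The 12 h value was -0.95 with library size alone and -0.99 with thinned libraries. At 24, 36 and 48 h rpc1 was at -0.74, -0.65 and -0.82. rpc25 had log2 changes of -1.17 ± 0.06 at 8 h (adjusted p = 8.53e-20) and -1.10 ± 0.06 at 12 h (adjusted p = 4.46e-19), and went to -0.57 at 48 h. rpc2 ran from -0.98 at 8 h to -0.49 at 24 and 36 h. Its 8 h value passed 2-fold, at -1.01 to -1.02, when any one of the 3 wild-type 0 h libraries, deletion 0 h replicate 3 or deletion 8 h replicate 1 was left out. With no low-count filter that value was -1.01 and so also past 2-fold. rpc53 stayed between -0.57 and -0.34.

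At 4, 8 and 12 h, 4 of the 7 subunits were called in the deletion at each time, where 30.9%, 36.9% and 39.0% of all genes were called. At 24, 36 and 48 h none of the 7 was called by edgeR or by DESeq2, where 41.7%, 41.4% and 42.3% of all genes were called by edgeR. At an unadjusted p under 0.05, with no limit of size, edgeR gave 6, 7 and 6 of the 7 at these times, with log2 changes of -0.93 to 0.34. At any size, 40 of the 42 changes in the deletion had an adjusted p under 0.05, and so did 40 of 42 in the wild type. Most genes did so too: by time, 83.6% to 88.8% of all genes in the deletion and 85.7% to 87.8% in the wild type. The median log2 change over the 7 was -1.18 at 4 h and -0.57 at 48 h, beside 0.03 and -0.03 over all genes.

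**Figure D2:**
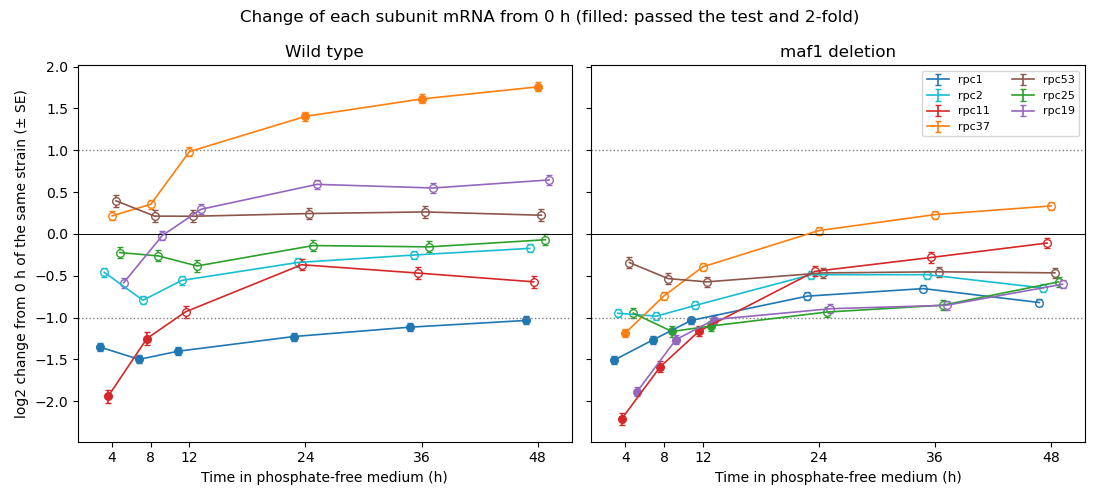
log2 change of each subunit mRNA from 0 h of the same strain (y axis, ± SE) against hours in phosphate-free medium (x axis), with wild type on the left and the maf1 deletion on the right; filled points had an adjusted p under 0.05 and passed 2-fold, dotted lines mark 2-fold, and points are set slightly apart sideways. In the wild type rpc37 ends at 1.76 and rpc1 at -1.03; in the deletion all 7 lie below 0 at 4 h and the filled points are at 4 to 12 h.

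Compared at the same time of starvation, the strains were closer than at 0 h for rpc19, rpc25, rpc37 and rpc53. For rpc1 and rpc2 they were further apart at 4 h, for rpc2 also at 48 h, and for rpc11 at 36 and 48 h. At 4, 8, 12, 24 and 36 h no subunit was called between strains by edgeR or by DESeq2, where 7.97%, 6.81%, 7.74%, 13.2% and 17.9% of all genes were called by edgeR. At an unadjusted p under 0.05 of any size, edgeR gave 6, 3, 4, 5 and 4 of the 7. At 48 h 1 of 7 was called, rpc11, where 22.5% of all genes were. rpc11 stood higher in every deletion library than in every wild-type library of the same time. Its wild-type and deletion libraries were at 34.6 (middle value) and 55.8 CPM at 24 h, at 31.9 and 63.5 CPM at 36 h, and at 28.9, 30.9 and 29.4 against 74.0, 67.4 and 71.9 CPM at 48 h. The lowest deletion library at 48 h was more than 2 times the highest wild-type one. The log2 differences were 0.52, 0.46, 0.56, 0.71, 0.98 and 1.26 at 4, 8, 12, 24, 36 and 48 h, with an adjusted p of 1.11e-18 for the last. At 36 h the call of rpc11 depended on the setting: the value passed 2-fold without wild-type 36 h replicate 2 (1.06), with library size alone (1.06) and with thinned libraries (1.04). It also passed 2-fold, by 0.01 or less, without deletion 36 h replicate 2, with scaling factors from genes other than noncoding ones and with the 2 groups fitted alone.

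rpc19, called higher at 0 h, lay between -0.12 and 0.12 at every later time, with overlapping libraries at 4, 12, 36 and 48 h. rpc37 was on the lower side in the deletion from 4 h on, at -0.34, -0.03, -0.32, -0.30, -0.32 and -0.36. At 48 h its 132, 125 and 124 CPM in the wild type did not overlap the 103, 90.3 and 103 CPM of the deletion. rpc25 was between 0.09 and 0.49, highest at 48 h. rpc53 was between 0.09 and 0.19, with overlapping libraries at 4, 8, 12 and 24 h. rpc1 was between -0.54 and 0.09 and rpc2 between -0.31 and 0.03, both lowest at 4 h, where the deletion held 59.3, 52.0 and 58.0 CPM of rpc1 and the wild type 81.1, 80.0 and 85.7 CPM.

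**Figure D3:**
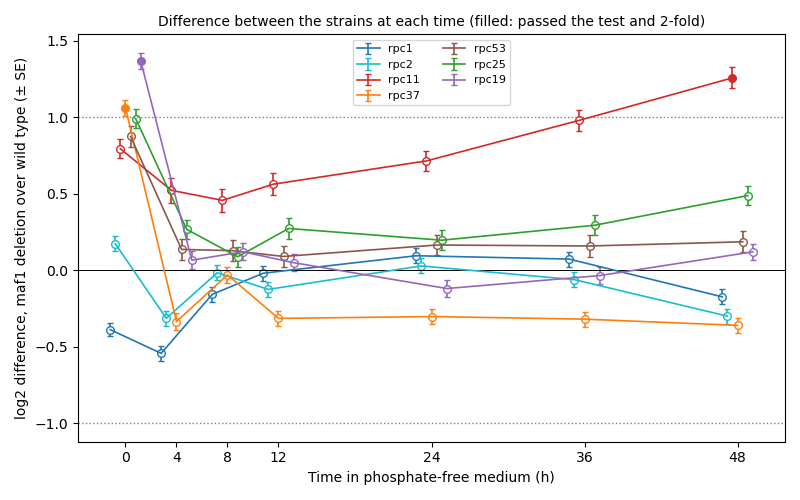
log2 difference of each subunit mRNA between the maf1 deletion and the wild type (y axis, ± SE) at each time (x axis, hours in phosphate-free medium); filled points had an adjusted p under 0.05 and passed 2-fold, dotted lines mark 2-fold, and points are set slightly apart sideways so that they can be seen. The filled points are rpc19 and rpc37 at 0 h and rpc11 at 48 h, and rpc11 runs from 0.46 at 8 h to 1.26 at 48 h.

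Whether the change from 0 h itself differed between strains was tested as an interaction. It equals the strain difference at a time less the strain difference at 0 h, so all 6 tests share the 0 h libraries and the 0 h differences described above. rpc19 and rpc37 were called at all 6 times, both with the more negative change in the deletion, and none of the other 5 was called at 2-fold. For rpc19 the difference in log2 change was -1.30, -1.25, -1.32, -1.49, -1.40 and -1.25 at 4, 8, 12, 24, 36 and 48 h (SE 0.08 each). For rpc37 it was -1.40, -1.09, -1.38, -1.37, -1.38 and -1.42 (SE 0.07 to 0.08). Adjusted p-values of these 12 tests ran from 6.52e-20 (rpc37 at 48 h) to 9.64e-16 (rpc37 at 8 h).

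The other subunits had smaller differences in change. rpc53 lay between -0.78 and -0.69 and rpc25 between -0.90 and -0.50, both negative at all 6 times. rpc2 lay between -0.49 and -0.15, but with library size alone it was positive at 8, 12, 24 and 36 h. rpc1 went from -0.16 at 4 h, or 0.11 with library size alone, to 0.48 at 24 h, and rpc11 from -0.34 at 8 h to 0.46 at 48 h, with library size alone turning its -0.23 at 12 h into 0.09 and its -0.08 at 24 h into 0.21. At each time 2 of 7 were called, where 30.0%, 29.6%, 33.2%, 35.0%, 38.3% and 40.3% of all genes were called at 4, 8, 12, 24, 36 and 48 h. With library size alone the median of all genes shifted by 0.26 to 0.36 in these tests, and the share of called genes with a higher change at 48 h went from 54.8% to 67.0%. rpc19 then stood at -0.98, -0.99 and -0.99 at 8, 12 and 48 h and rpc37 at -0.83 at 8 h, all inside the 2-fold limit.

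The 2 starved stages were also compared within each strain. This set the mean of 24, 36 and 48 h against the mean of 4, 8 and 12 h. The 0 h groups do not enter this difference, but their libraries are in the shared fit behind the SE and p-values. In the wild type rpc37 rose (1.07 ± 0.03, adjusted p = 1.95e-27), and rpc11 (0.90), rpc19 (0.70), rpc2 (0.35), rpc1 (0.29) and rpc25 (0.17) were positive without reaching 2-fold. In the deletion rpc11 rose (1.37 ± 0.04, adjusted p = 1.25e-28), with rpc37 at 0.97 (1.02 and called with scaling factors from genes other than noncoding ones), rpc19 at 0.61, rpc1 at 0.53, rpc2 at 0.39 and rpc25 at 0.29. rpc53 was at -0.03 in the wild type and 0.02 in the deletion, with adjusted p of 0.508 and 0.585. Of the 7 subunits 1 was called in each strain, where 12.8% of all genes were called in the wild type and 19.5% in the deletion.

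In this step no difference between strains reached 2-fold for any of the 7. None of the 7 was called by edgeR or by DESeq2 for the difference between strains, where 14% of all genes were called by edgeR, and 4 had an unadjusted p under 0.05 of any size. The difference was largest for rpc11, at 0.47 ± 0.06 (adjusted p = 5.07e-09), and for rpc1, at 0.24 ± 0.04 (adjusted p = 1.64e-06). For rpc37 it was -0.10 ± 0.04 and for rpc19 -0.09 ± 0.05. rpc37 in the wild type stood at 0.99, just inside 2-fold, with library size alone.

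Levels of different subunits can be set side by side only per length. Per kilobase of annotated exon (639 bases for rpc19, 474 for rpc11, 4566 for rpc1 and 2138 for rpc25 in the ASM294v3 annotation), rpc11 had the highest level in the wild type at 0 h, 93.4 ± 5.14 CPM per kilobase. rpc19 followed at 79.4 ± 1.81, rpc1 at 46.1 ± 3.07, rpc37 at 38.4 ± 1.41, rpc53 at 36.1 ± 0.83, rpc2 at 34.0 ± 0.74 and rpc25 at 21.8 ± 2.01. No neighbours in that order overlapped. At 4 h in the wild type the order was rpc19, rpc53, rpc37, rpc2, rpc11, rpc25 and rpc1, with rpc53 and rpc37, rpc2 and rpc11, and rpc25 and rpc1 overlapping.

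At 48 h rpc37 (129.7 ± 4.62 CPM per kilobase) and rpc19 (124 ± 4.58) led in the wild type and overlapped each other. In the deletion rpc11 led at 48 h (149.97 ± 7.10), ahead of rpc19 (135 ± 7.20) and rpc37 (101 ± 7.65), and rpc1 was last (19.9 ± 0.39). The ratio of the highest to the lowest subunit was 2.94 in the wild type at 4 h and 7.52 in the deletion at 48 h, the smallest and largest of the 14 groups on this scale. The annotation of another assembly than that of the counts gave these lengths. With coding length alone rpc19 came first in all groups except the wild type at 0 h, and rpc1 last in all groups except that one. The ratio was then smallest in the wild type at 0 h (3.87), was 4.59 at 4 h, and was again largest in the deletion at 48 h (10.6).

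Over the 14 groups rpc11 had the widest range of mean level, 6.64-fold from 11.5 CPM (wild type, 4 h) to 76.6 CPM (deletion, 0 h), and rpc53 the narrowest, 1.83-fold from 53.6 CPM (wild type, 0 h) to 98.3 CPM (deletion, 0 h). For 5 of the 7, namely rpc2, rpc11, rpc19, rpc25 and rpc53, the highest of the 14 groups was the deletion at 0 h. The exceptions were rpc1, highest in the wild type at 0 h, and rpc37, highest in the wild type at 48 h. For rpc2 this depended on scaling, as its log2 difference between strains at 0 h was -0.11 with library size alone. For rpc11 the deletion's libraries at 48 h overlapped those at 0 h. The share of all genes that were highest in the deletion at 0 h was not computed, so the count is a description only.

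As a description over the 14 group means, which share depth and strain, the members' log2 levels had a Pearson correlation of -0.04 to 0.90 with a median of 0.52 over the 21 pairs. The genes of the active centre, rpc1 and rpc2, were the most alike (0.90), followed by rpc11 and rpc19 (0.82). rpc25 and rpc53 (0.77) and rpc19 and rpc37 (0.77) came next. The heterodimer genes rpc37 and rpc53 were at 0.07 and rpc1 and rpc53 at -0.04.

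Of all other genes tested, those whose 14 group means were most like rpc19 were tsr2 (r = 0.98), for an rRNA processing protein, dus2 (0.97), for a tRNA dihydrouridine synthase, lcp5 (0.96), for a U3 snoRNP-associated protein, met1 (0.95), for a uroporphyrin methyltransferase, and ddx27 (0.95), for an RNA helicase. Those most like the mean of the other 6 subunits were met14 (0.98), for adenylyl-sulfate kinase, byr3 (0.98), for a zinc finger translational activator, apt1 (0.98), for adenine phosphoribosyltransferase, mpp10 (0.98), for a U3 snoRNP-associated protein, and bcd1 (0.97), for a snoRNA biogenesis protein. These were picked as the highest of all genes and carry no test.

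A further 6 subunits of the polymerase with rpc names, rpc10, rpc17, rpc31, rpc34, rpc40 and rpc82, were all above 0 between strains at 0 h and all below 0 at 4 h in both strains. At 0 h 2 of 6 were called higher in the deletion, where 29.7% of all genes were called, rpc40 (1.07 ± 0.05), the partner of Rpc19, and rpc17 (1.07 ± 0.07), the partner of Rpc25 in the stalk, and the list's median was 0.58. In the wild type 3 of 6 fell at 4 h (all genes 34.9%), from rpc40 at -1.05 to rpc10 at -1.40, and none was called by edgeR at 48 h, when all 6 had an unadjusted p under 0.05 of any size. In the deletion all 6 fell at 4 h (all genes 30.9%), from rpc82 at -1.02 to rpc40 at -2.24, and 3 of 6 were called lower at 48 h (all genes 42.3%), from rpc17 at -1.01 to rpc40 at -1.41. At 4 h the median was -0.91 in the wild type and -1.48 in the deletion, against -0.46 and -1.18 for the 7.

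The list of RNA polymerase I, which Rpc19 also serves, held 7 further subunits. At 4 h 5 of 7 fell in the wild type (median -1.06, from rpa43 at -1.02 to ker1 at -1.45), and all 7 fell in the deletion (median -1.92), beside 34.9% and 30.9% of all genes called. At 48 h 3 of 7 were called lower in the wild type and all 7 in the deletion (median -1.63, from rpa12 at -1.06 to rpa49 at -2.45), beside 41.8% and 42.3% of all genes. At 0 h 2 of 7 were called higher in the deletion, rpa43 (1.37) and ker1 (1.10), a share close to the 29.7% of all genes. Of the subunits of RNA polymerase II none of 7 was called at 4 h in either strain or at 0 h between strains by edgeR, and the medians were -0.11, -0.27 and -0.02. At an unadjusted p under 0.05 of any size 6, 6 and 5 of them passed. The 6 subunits shared between polymerases apart from rpc19 were rpb5, rpb6, rpb8, rpb10 and, again, rpc10 and rpc40. At 4 h 3 of these 6 fell in the wild type, where 2 of the 6 were above 0, and 5 fell in the deletion, beside 34.9% and 30.9% of all genes called. At 0 h 2 of 6 were called higher in the deletion, rpb6 (1.24) and rpc40 (1.07), beside 29.7%. These lists are described side by side, and a difference between them was not tested.

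**Figure D4:**
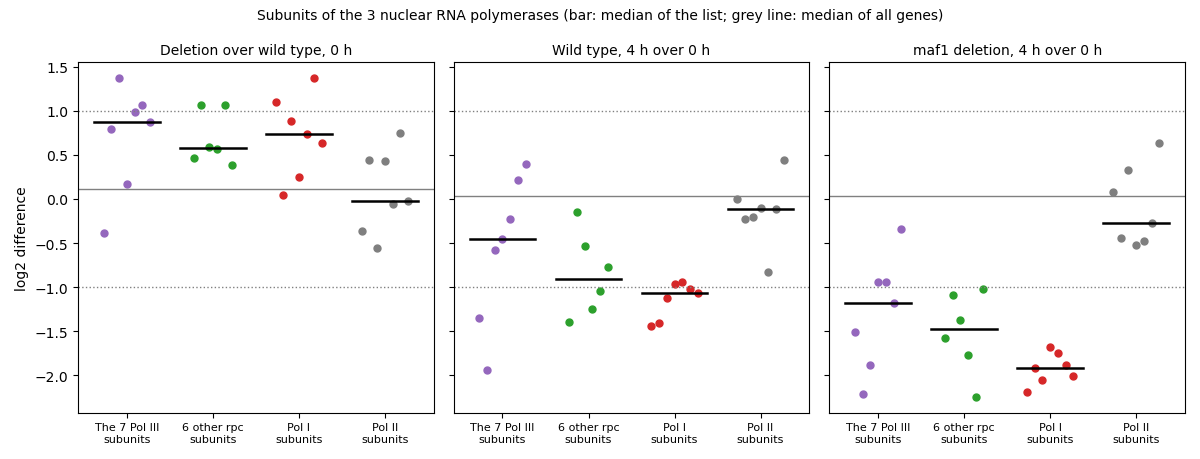
log2 differences of single genes (points) in the 7 subunits, 6 other subunits of RNA polymerase III with rpc names, and 7 subunits each of RNA polymerases I and II, for the deletion over the wild type at 0 h (left), the wild type at 4 h over 0 h (middle) and the deletion at 4 h over 0 h (right); black bars are list medians, the grey line is the median of all genes and dotted lines mark 2-fold. At 4 h the deletion's medians are -1.18, -1.48, -1.92 and -0.27 in that order of lists.

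Among the factors that bring the polymerase to its genes, TFIIIB and TFIIIC, 8 of 9 listed genes were tested. At 0 h 2 were called higher in the deletion, with brf1, for the TFIIIB subunit related to TFIIB, at 2.83 ± 0.06, and 2 lower, with sfc4, for a TFIIIC subunit, at -1.59 ± 0.04, beside 29.7% of all genes called. In the wild type brf1 rose by a log2 change of 3.20 at 4 h and 4.55 at 48 h, and in the deletion it rose by 1.73 at 48 h. Between strains none of the 8 was called by edgeR at 48 h and 3 had an unadjusted p under 0.05 of any size, with log2 differences of -0.56 to 0.18, beside 22.5% of all genes called. sla1, for the La protein that binds the 3' ends of new polymerase III transcripts, was at 1.09 ± 0.05 in the deletion at 0 h, and fell at all 6 times in the deletion, by a log2 change of -2.66 at 4 h and -2.01 at 48 h. In the wild type sla1 fell at 8 h (-1.29) and 12 h (-1.07), and was at -0.98 at 4 h and -0.65 at 48 h.

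The authors' deposited table for each group against wild type 0 h gave the same direction for all 91 values of the 7 subunits. The authors' deposited tables differed from the log2 changes computed here by -0.08 to 0.13, with a median of 0.04. Both ends of that range were in the wild type at 12 h, for rpc25 and rpc2, where the difference varied by gene. Within each other comparison the differences of the 7 were close to each other. At 12 h the authors' values were -0.92 for rpc11 and 0.94 for rpc37. The cause of the spread at 12 h was not tested. For the deletion at 0 h the authors' deposited table gave 1.32 for rpc19, 1.01 for rpc37 and 0.74 for rpc11.

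Annotated transcripts lie over all 7 genes. In the ASM294v3 annotation each of the 7 is overlapped by at least 1 gene on the opposite strand, and of the 15 overlapping genes 3 are in the count table. The library kit keeps strand, but the strand setting used in counting is not given in the sources used here. The antisense transcript of rpc37, SPNCRNA.1112, had 57 to 59 counts in the wild type at 0 h and 171 to 209 in the deletion at 0 h, which was 6.02% and 6.34% of the rpc37 counts, and 4 to 14 in the wild type at 48 h (0.47%). SPBC651.07 overlaps the end of rpc1 on the opposite strand and in the wild type stood at 131 ± 5.11 CPM before starvation and 137 ± 3.35 CPM at 4 h, while rpc1 went from 211 to 82.3 CPM. SPBC2G5.06c shares 33 bases with rpc25 on the same strand, and its counts were 551% to 1245% of those of rpc25 over the 14 groups. Their part in the values of the 7 was not tested.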

How the data were processed

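The authors deposited 1 table of estimated counts per gene for 42 libraries, made with HISAT2 2.1.0, SAMtools, HTSeq 0.10.0 and the build ASM294v2, which the submitters' processing notes name with no role or order. Among the deposited counts a value of 0.5 stands in place of each 0 (19110 of 293538 values) and every other count is whole; all were rounded, 0.5 to 0; 2 of 6989 lines share an identifier and were summed. The authors also deposited log2 fold changes against wild type 0 h with their standard error (here listed as a score), an adjusted p-value and a mean signal, made with DESeq2 per the file headers; only their log2 fold changes were used, beside those computed here.

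With R 4.3.3 and edgeR 4.0.16, genes were kept by filterByExpr over 14 groups (6521 genes), scaled by TMM, and fitted by glmQLFit with 1 mean per group over all 42 libraries (28 residual degrees of freedom). Comparisons used glmQLFTest, with Benjamini-Hochberg adjustment over all genes tested in each of 28 contrasts. SE values came from the F statistics. The procedure was tested on simulated data. There few genes changed, as many up as down and in 1 group only, so the shifts with scaling seen here were not covered. Replicates differed by more than counting error. The chi-square per degree of freedom was 3.88 to 10.1 in the wild-type groups and 14.6 to 37.4 in the deletion groups, while 1 fit served both strains. Alternatives were DESeq2 1.42.0, other scalings, filters, thresholds, thinning, a replicate block and leaving out each library.

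All 7 subunits were named in every comparison. Of each other list the genes named were the highest and lowest among those called, and for likeness the 5 genes of highest Pearson r. The subunits, lists and rules were chosen with earlier results of these data known. Lengths and overlaps came from RefSeq's annotation of ASM294v3, another assembly than that of the counts, so no coordinates or sequences are given.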

Additional observations from a re-analysis of the deposited data

Results flagged for a closer look

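The change from 0 h differed between the strains for rpc19 and rpc37 at all 6 times, by edgeR's test of the difference itself. As the deletion's log2 change less the wild type's, rpc19 stood at -1.30 at 4 h, -1.25 at 8 h, -1.32 at 12 h, -1.49 at 24 h, -1.40 at 36 h and -1.25 at 48 h. rpc37 stood at -1.40 at 4 h, -1.09 at 8 h, -1.38 at 12 h, -1.37 at 24 h, -1.38 at 36 h and -1.42 at 48 h. All 12 values rest on the same 6 libraries of 0 h, in which both mRNAs were higher in every deletion library than in every wild-type library. Of all genes, 29.6% to 40.3% were called in the same tests, so 2 of 7 at each time was not above that share. With library size alone, rpc19 at 8, 12 and 48 h (-0.98, -0.99 and -0.99) and rpc37 at 8 h (-0.83) were inside the 2-fold limit.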

How the results depend on the processing

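The calls were 11 of 42 for the wild type against 0 h, 12 of 42 for the deletion against its 0 h, 3 of 49 between strains, 12 of 42 for the difference in change and 2 of 21 between stages. Without the 2-fold limit these counts were 40, 40, 34, 40 and 16, and at 1.5-fold they were 16, 26, 8, 23 and 6. In the same order, 34.9% to 42.5%, 30.9% to 42.3%, 6.81% to 29.7%, 29.6% to 40.3% and 12.8% to 19.5% of all genes were called. Without the 2-fold limit the shares of all genes were 85.7% to 87.8%, 83.6% to 88.8%, 55.4% to 83.8%, 78.1% to 84.2% and 76.6% to 87.8%. Library size alone left 1 call between stages. Leaving out each of the 42 libraries in turn gave 11 to 12, 11 to 13, 3 to 4, 12 and 2 calls; of 8232 single values 11 changed their call, in 6 pairs of gene and comparison, and none of these reversed. No called value reversed under any alternative. With DESeq2's size factors or its Wald test all 196 values of gene and comparison kept their side of the threshold; library size alone ended 8 and added 2. The replicate block gave 11, 12, 3, 12 and 2 calls and so changed none; in 10 of 91 pairs of groups every correlation between libraries of the same number was over 0.1 and the median was 0.04, so the numbers were not taken to pair the samples. The cause of these shifts was not tested. Thinning all libraries to one depth ended 2 calls and added 2. Strain, mating type and depth cannot be told apart.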
